A study of Tupaia belangeri chinensis with 36 samples.

Results

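The features described here are 1064 noncoding transcripts of the Chinese tree shrew whose names carry the symbol of a zinc finger gene. Members were chosen by name alone, as features of the form LINC-symbol-number or symbol-AS-number whose symbol starts with ZNF, ZFP, ZBTB, ZSCAN or ZKSCAN, out of 76871 annotated features. They comprise 631 LINC names and 433 AS names built on 264 symbols, with 778 ZNF, 162 ZFP, 108 ZBTB, 8 ZSCAN and 8 ZKSCAN names. Another 53307 LINC or AS features carry other symbols and serve as the background below. A name of this kind says which coding gene a transcript was named after, and nothing in the files states its position, length or sequence.

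Classical zinc finger proteins bind DNA through repeated fingers, and many of them repress transcription. The large mammalian family with a KRAB domain recruits silencing complexes to transposable elements, while ZBTB proteins pair their fingers with a BTB domain that joins proteins together. Several of these genes, among them ZBTB20, ZBTB16 (PLZF), ZNF521 and ZBTB18 (also called ZNF238 or RP58), have known roles in neural progenitors or in cortical neurons. The prefix does not guarantee such a protein: ZFP36 family proteins bind RNA and hasten its decay, ZFPM2 (FOG2) is a cofactor of GATA factors, and ZNFX1 is an RNA helicase of antiviral defence. Long noncoding transcripts can lie between genes or run antisense to one, and many are made in fewer tissues than coding genes are.

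The study laser-dissected layers of fetal cortex from Chinese tree shrews at embryonic day 28 (E28), E37 and E42 and sequenced polyadenylated RNA in order to describe the transcriptome around the rise of the outer subventricular zone (OSVZ). The germinal layers, which hold the dividing progenitors, are the ventricular zone (VZ), the inner subventricular zone (ISVZ) and the OSVZ, and the neuron-rich layers are the intermediate zone (IZ), the cortical plate (CP) and the marginal zone (MZ). E28 has 2 libraries of each of these 6 layers. E37 has 3 IZ, 2 MZ, 1 CP, 2 inner CP (CPi) and 2 outer CP (CPo) libraries and no germinal layer here, and E42 has 2 libraries each of MZ, CPo, CPi, IZ, OSVZ and ISVZ. The file labelled E42 VZ replicate 2 equals the file labelled E28 VZ replicate 2 at all 76871 features and was left out, so that E42 VZ is 1 library, assumed to vary like the other groups. All embryos were untreated, and the labels do not say which layers came from 1 embryo, so p-values measure the spread between these libraries, part of which may be technical. In dissected tissue, fewer cells of a type and less RNA per cell cannot be told apart. Whether each dissected layer holds its expected marker genes was not checked here, because coding features carry identifiers that are not paired with symbols.

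The 35 libraries held between 17932690 and 102042743 counts assigned to features, with a median of 31760000. Totals were higher at E42 (mean 44460000) than at E28 (31830000) or E37 (26270000), and the number of members with at least 1 count ran from 180 to 501 per library, highest at E42 (median 356) and lower at E28 (282) and E37 (267.5). Levels are given as CPM, counts scaled to the library total and corrected by TMM factors. They are not divided by transcript length, so tests compare libraries for 1 member, and an order of members by level also reflects their lengths. The library kit does not mark strand, so reads of an AS feature and of its partner gene cannot be told apart.

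Of the 1064 members, 782 had a count in at least 1 library, 282 had none and 68 had a count in every library. The count filter left 299 members for testing, 123 LINC and 176 AS, which was 28.1% of the members against 19.8% of the other LINC and AS features. AS names passed more often (40.6%) than LINC names (19.5%). ZFP39 lent its name to 88 features, of which 13 were tested. Levels were low: the median of the tested members' mean level was 0.156 CPM, against 0.131 for the other LINC and AS features, and 96 of 299 reached a mean of 0.3 CPM. All statements below are about tested members, and a member that passed the filter through the layer in which it is high could hardly fail to differ.

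One member dominated the total. ZNF490-AS-1, named after a KRAB zinc finger gene, averaged 179.5 CPM over the 35 libraries, between 106.7 CPM in an E42 IZ library and 304.9 CPM in an E28 CP library, and made up between 27.4% and 45.1% of all member counts in each library. At E28 it stood at 128 and 147 CPM in VZ, 194 and 208 in ISVZ, 242 and 237 in OSVZ, 173 and 214 in IZ, 208 and 305 in CP and 138 and 222 in MZ. The VZ libraries were below all OSVZ and ISVZ libraries. The layers differed at both stages (edgeR adjusted p = 0.00735 at E28 and 0.00353 at E42), and at E42 its highest layer was CPo with 219 and 209 CPM. The remaining abundant members were LINC-ZNF420-2 (mean 36.4 CPM), ZBTB34-AS-1 (18.6), ZNFX1-AS-1 (16.5), LINC-ZNF592-1 (16.1), ZNF416-AS-2 (16.1), LINC-ZBTB14-2 (15.4) and ZNF496-AS-1 (13.7). Members together summed to between 368.5 and 676.9 CPM per library.

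Members that differed in any way among the layers of 1 stage numbered 30 of 299 at E28 (10%, edgeR quasi-likelihood F test with Benjamini-Hochberg adjustment over 26858 features) and 25 at E42 (8.36%). Among all features tested 37.8% and 33.9% passed the same test, and among the other LINC and AS features 13.9% and 8.81%. The mean was highest in MZ for 11 and in CP for 9 of the 30 members that differed at E28. With or without a call, it was highest in MZ for 28.1% and in CP for 21.4% of tested members. For the other LINC and AS features these shares were 31.9% and 16%. At E42 the mean was highest in VZ for 11 of the 25. VZ is 1 library there, and a single library reaches an extreme more easily than a mean of 2. With CPi and CPo pooled, VZ was highest at E42 for 26.2% of tested members and 25.6% of the other LINC and AS features. The share of members that passed was below that of all features in every one of the 12 comparisons and, over all tested members, within 4 percentage points of that of the other LINC and AS features. Among features with a mean of at least 0.3 CPM (96 members and 3104 others) the shares lay further apart: 18.8% of members against 31.9% of the others for layers at E28, 13.5% against 22.5% for layers at E42, 18.8% against 33.4% and 13.5% against 26.1% for germinal against neuron-rich layers at E28 and E42, and 10.4% against 21.5% for OSVZ against CP at E42. At that level the members' share was the lower one in 11 of the 12 comparisons, the exception being neuron-rich layers from E28 to E42 (26% against 21.2%), and these differences were not tested.

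**Figure D1:**
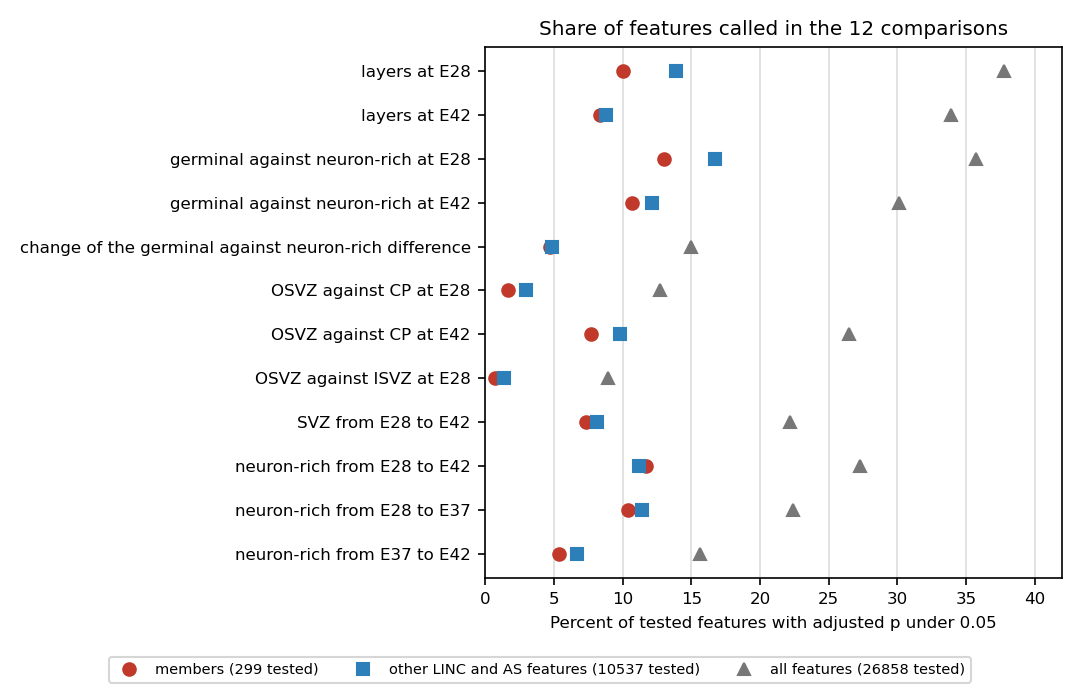
Percent of tested features with edgeR adjusted p under 0.05 (horizontal axis) in each of the 12 comparisons (vertical axis), for the 299 tested members (circles), the 10537 other LINC and AS features (squares) and all 26858 features (triangles). Circles and squares lie close together, for example 8.36% and 8.81% for layers at E42, and triangles lie to their right in every row.

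Germinal against neuron-rich layers at E28 gave 39 members (13% of 299), 16 higher and 23 lower in the germinal layers. Over all features 35.7% passed (18.5% higher, 17.1% lower) and over the other LINC and AS features 16.7%. Transcripts low in the germinal layers included ZBTB38-AS-1, ZNF831-AS-1, ZNF140-AS-2, LINC-ZNF652-5 and LINC-ZFP809-1, and LINC-ZNF316-2 had the smallest adjusted p among those that were higher. The balance of higher and lower calls depended on scaling: with library sizes and TMM factors from LINC and AS features alone, 27 members were higher and 16 lower, and the median log2 fold change of all features moved by 0.36. Of the 39 members, 20 had at least 1 layer at 0 in all of its libraries, where a fitted fold change depends on the prior count; for such members levels are given instead.

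ZBTB38-AS-1 is named after a gene whose protein binds methylated DNA. At E28 it read 0.0319 and 0.148 CPM in VZ, 0.325 and 0.335 in ISVZ, 0.468 and 0.608 in OSVZ, 0.773 and 1.76 in IZ, 1.27 and 3.60 in CP and 2.18 and 2.21 in MZ. Every germinal library was below every neuron-rich library. The log2 fold change was -2.87 ± 0.35 (SE, 6 against 6 libraries, edgeR adjusted p = 5.95e-08), with side means of 0.319 and 1.97 CPM.

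ZNF140-AS-2, named after a KRAB zinc finger gene, read 0.702 and 1.29 CPM in VZ, 0.974 and 1.68 in ISVZ, 1.21 and 2.84 in OSVZ, 3.77 and 3.66 in IZ, 4.18 and 4.11 in CP and 3.58 and 5.38 in MZ at E28. The groups did not overlap, and the log2 fold change was -1.56 ± 0.31 (SE, edgeR adjusted p = 0.000148). LINC-ZFP809-1 carries the name of a KRAB protein known in mouse for silencing retroviruses. It read 0.0957 and 0.346 CPM in VZ, 0.649 and 1.10 in ISVZ and 0.935 and 2.95 in OSVZ, against 1.55 to 3.62 CPM in the 6 neuron-rich libraries. Only its higher OSVZ library reached the neuron-rich range, and the log2 fold change was -1.62 ± 0.43 (SE, edgeR adjusted p = 0.00311). LINC-ZNF652-5 read between 0.0319 and 0.984 CPM in germinal libraries and between 0.345 and 2.79 in neuron-rich ones, highest in MZ (2.79 and 2.34). The groups overlapped, and the log2 fold change was -1.92 ± 0.40 (SE, edgeR adjusted p = 0.000239).

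ZNF831-AS-1 was highest in CP and MZ at E28. It read 0.0638 and 0.346 CPM in VZ, 0.108 and 0.152 in ISVZ, 0.165 and 0.145 in OSVZ, 0.451 and 0.242 in IZ, 1.76 and 1.19 in CP and 3.22 and 2.29 in MZ. The CP and MZ libraries were all above the others, while IZ overlapped with VZ. The log2 fold change was -2.76 ± 0.44 (SE, edgeR adjusted p = 6.41e-06).

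In the other direction, LINC-ZNF316-2 read 21.8 and 13.3 CPM in VZ, 26.7 and 17.2 in ISVZ and 23.3 and 17.1 in OSVZ at E28, against 11.3 and 11.8 in IZ, 12.4 and 9.52 in CP and 9.46 and 4.54 in MZ. Every germinal library was above every neuron-rich library, with a log2 fold change of 1.04 ± 0.18 (SE, edgeR adjusted p = 1.84e-05). LINC-ZNF416-1 was lower in every germinal library (3.73 to 5.12 CPM) than in every neuron-rich library (5.79 to 10.01 CPM, highest in a CP library), by a log2 fold change of -0.60 ± 0.18 (SE, edgeR adjusted p = 0.0105), but passed no longer with LINC and AS scaling (-0.22, edgeR adjusted p = 0.485).

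At E42 the same comparison gave 32 members (10.7%), 25 higher and 7 lower in the germinal layers, with 30.1% of all features (15.6% higher, 14.4% lower) and 12.1% of the other LINC and AS features. Without the single VZ library, ISVZ and OSVZ alone gave 19 members, and without E42 IZ replicate 1 there were 21. LINC and AS scaling gave 13 higher and 10 lower, with a shift of -0.30 in the median of all features. Of the 32 members, 16 had at least 1 layer at 0 in all of its libraries.

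ZNF71-AS-1 and ZNF71-AS-3 share a symbol and went opposite ways. At E42, ZNF71-AS-1 read 6.93 CPM in VZ, 8.94 and 8.13 in ISVZ and 9.16 and 7.29 in OSVZ, against 3.57 and 3.10 in IZ, 2.60 and 1.78 in CPi, 2.52 and 2.52 in CPo and 3.34 and 3.72 in MZ. The germinal libraries all lay above the neuron-rich ones, by a log2 fold change of 1.38 ± 0.25 (SE, 5 against 8 libraries, edgeR adjusted p = 5.01e-05). ZNF71-AS-3 read 4.98 CPM in VZ, 3.57 and 3.76 in ISVZ and 4.14 and 5.38 in OSVZ, against 7.35 and 7.87 in IZ, 11.1 and 12.1 in CPi, 10.6 and 8.73 in CPo and 7.78 and 8.45 in MZ. Here the germinal libraries all lay below, by a log2 fold change of -0.97 ± 0.21 (SE, edgeR adjusted p = 0.000491). These opposite calls at E42 passed under every scaling tried and with each library left out. ZNF71-AS-3 was also lower in germinal layers at E28 (-0.82 ± 0.20, SE, edgeR adjusted p = 0.00116, with overlapping groups), although not with LINC and AS scaling (-0.45, adjusted p = 0.0995). ZNF71-AS-1 at E28 ran from 3.74 to 7.29 CPM in germinal and from 3.15 to 6.76 in neuron-rich libraries, groups that overlapped (0.19 ± 0.24, SE, adjusted p = 0.641).

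ZBTB34-AS-1 was a cortical plate transcript at the later stages. At E28 it read 17.4 and 13.8 CPM in CP and between 4.01 and 15.6 CPM in the other layers. At E37 it read 45.5 CPM in CP, 37.7 and 26.4 in CPi and 44.9 and 23.7 in CPo, against 14.8 to 20.0 in IZ and 14.1 and 11.4 in MZ. At E42 it read 37.2 and 35.1 CPM in CPi and 51.0 and 40.3 in CPo, against 6.58 in VZ, 9.23 and 7.96 in ISVZ, 5.95 and 9.31 in OSVZ, 12.5 and 12.9 in IZ and 16.6 and 11.9 in MZ. The plate libraries were above every other library of their stage at E37 and E42. Germinal against neuron-rich layers at E42 gave a log2 fold change of -1.36 ± 0.23 (SE, edgeR adjusted p = 2.89e-05). LINC-ZBTB34-2, of the same symbol, read 15.8 and 14.1 CPM in CPi and 15.0 and 16.6 in CPo at E42, the highest libraries of that stage, but at E28 its CP libraries read 15.1 and 7.01 CPM, on either side of most germinal libraries (10.6 to 15.2 CPM), and it passed none of the 12 tests. Across the 35 libraries the log2 levels of this pair had a Pearson correlation of 0.669, a description over libraries that share layers and stages.

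**Figure D2:**
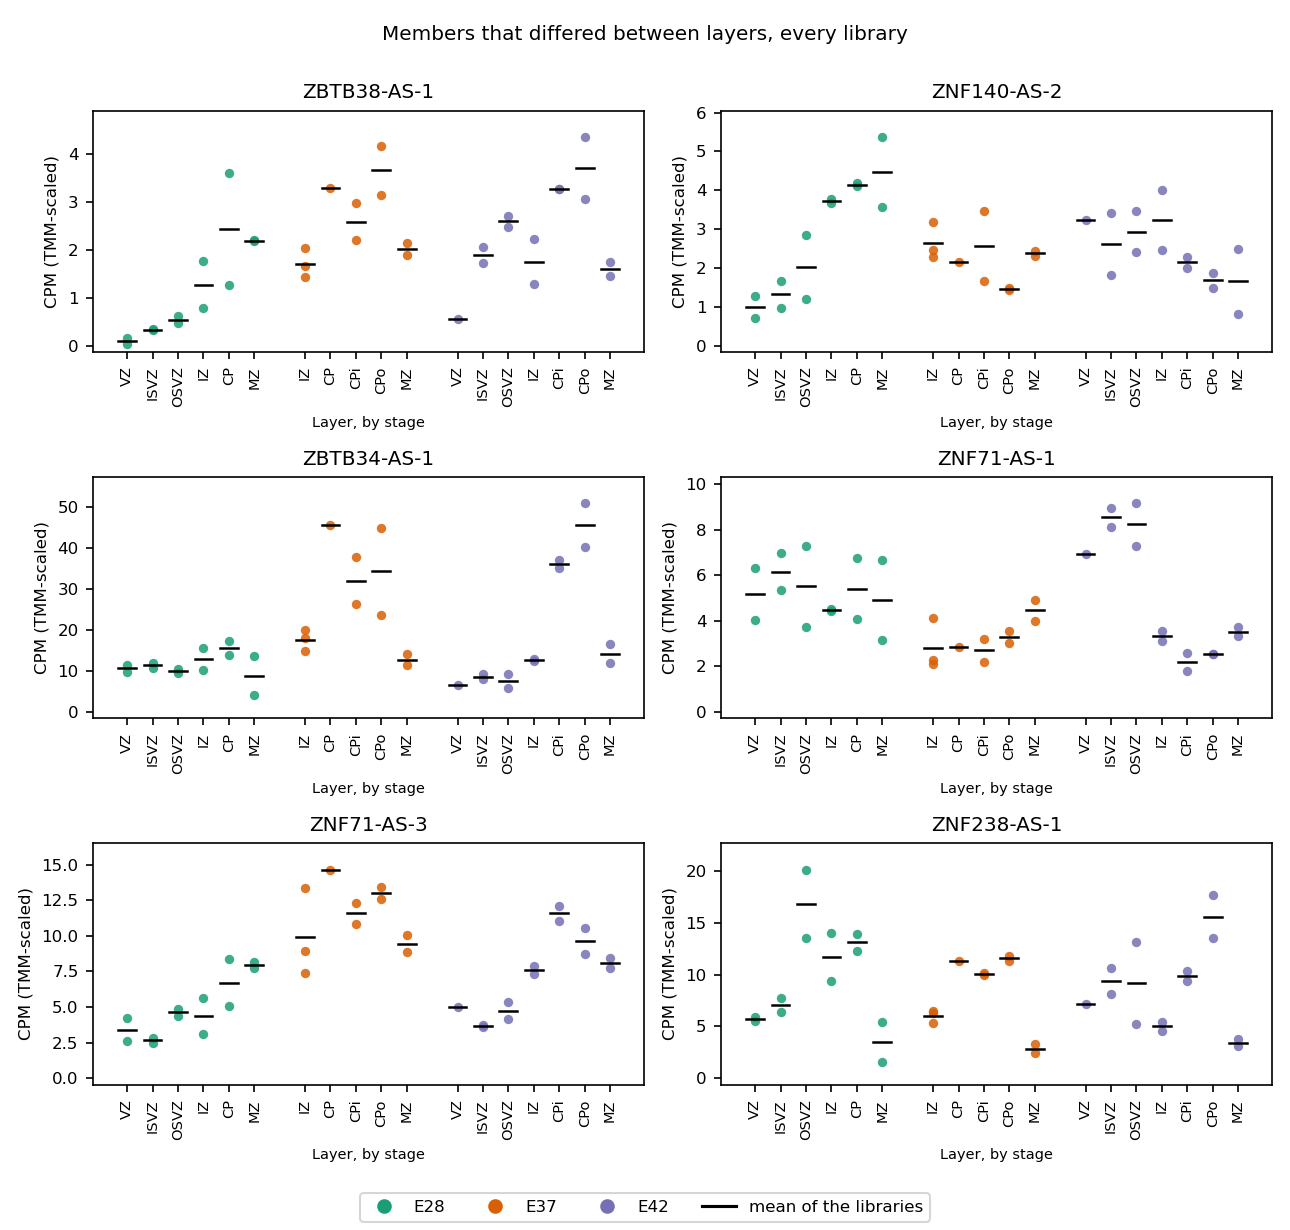
TMM-scaled CPM (vertical axes, starting near 0) of 6 members in every library, by layer within E28, E37 and E42 (horizontal axes); points are libraries and bars their means. ZBTB38-AS-1 and ZNF140-AS-2 are low in the E28 germinal layers, ZBTB34-AS-1 reaches 35.1 to 51.0 CPM in the plate at E42, and ZNF71-AS-1 and ZNF71-AS-3 run in opposite directions at E42.

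Among the more abundant members, LINC-ZBTB14-2 (0.69 ± 0.16, SE, edgeR adjusted p = 0.00137) and LINC-ZNF592-1 (0.54 ± 0.17, adjusted p = 0.0172) were higher in every germinal than in every neuron-rich library of E42. LINC-ZBTB14-2 read 16.3 to 22.4 CPM against 9.14 to 14.4, and LINC-ZNF592-1 read 18.0 to 20.8 CPM against 8.79 to 16.0. ZNFX1-AS-1 read 17.9 to 31.7 CPM in germinal and 9.44 to 19.1 in neuron-rich libraries, with a log2 fold change of 0.79 ± 0.17 (SE, edgeR adjusted p = 0.000421) and overlap through 1 CPo library. None of these 3 passed with LINC and AS scaling (adjusted p between 0.0650 and 0.373), which gave them the same direction. LINC-ZNF592-1 also did not pass without E42 IZ replicate 2 (0.47, adjusted p = 0.0670). ZNF280C-AS-1 read 4.29 CPM in VZ, 2.64 and 1.56 in ISVZ and 1.82 and 2.56 in OSVZ, against 0.338 to 1.62 CPM in neuron-rich libraries, with overlap through 1 IZ library (1.61 ± 0.43, SE, log2, edgeR adjusted p = 0.00456).

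Of the members that differed between germinal and neuron-rich layers, 11 did so at both stages, which was 28.2% of the E28 calls and 34.4% of the E42 calls, and all 11 had the same direction. For the other LINC and AS features these shares were 35.1% and 48.5%, and 94.7% of the shared calls had the same direction. The 11 were ZNF704-AS-2, ZNFX1-AS-1, LINC-ZNF521-1, LINC-ZNF608-10, LINC-ZNF664-6, ZBTB16-AS-1 and ZNF474-AS-1 on the germinal side and ZNF71-AS-3, ZNF831-AS-1, ZFPM2-AS-7 and LINC-ZNF334-1 on the neuron-rich side. ZNF474-AS-1 and LINC-ZNF334-1 lay outside the rule for named members and are named because their calls were seen. The E42 call of ZNF831-AS-1 rested on the single VZ library, in which it had no count. Without that library its log2 fold change was 0.15 (edgeR adjusted p = 0.884). ZNF474-AS-1 was highest in that VZ library at E42, and its ISVZ and OSVZ libraries overlapped with the neuron-rich range. The E28 call of LINC-ZNF608-10 (log2 fold change 3.79) was lost without E28 OSVZ replicate 1, where the log2 fold change was 2.12. LINC-ZNF521-1, LINC-ZNF664-6, ZBTB16-AS-1 and ZFPM2-AS-7 passed the count filter through the side where they were high. At E28 LINC-ZNF334-1 had no count in germinal libraries and ZNF474-AS-1 none in neuron-rich ones, sides that could not carry them past the filter. The calls of all these members thus give no independent support for a difference.

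The change of this difference from E28 to E42, tested as an interaction, passed for 14 members (4.68%), 13 with a rise of the germinal side relative to the neuron-rich side and 1 with a fall. Of all features 15% passed (6.67% up, 8.3% down), and of the other LINC and AS features 4.86%. The balance turned with scaling: LINC and AS scaling gave 6 up and 11 down, with a shift of -0.66 in the median of all features. Leaving out E28 VZ replicate 1, E28 OSVZ replicate 1, E28 IZ replicate 1 or E42 MZ replicate 2 left 9. ZBTB38-AS-1 at E42 read 2.06 and 1.72 CPM in ISVZ and 2.47 and 2.71 in OSVZ, inside the range of 1.28 to 4.36 CPM of the neuron-rich layers, while the VZ library, at 0.563 CPM, was below that range and above both VZ libraries of E28. Its change was 2.25 ± 0.46 (SE, log2, edgeR adjusted p = 0.000869). ZNF140-AS-2 changed by 1.97 ± 0.43 (SE, adjusted p = 0.00183) and LINC-ZFP809-1 by 2.63 ± 0.60 (SE, adjusted p = 0.00252). For ZNF140-AS-2 the E42 germinal libraries (1.83 to 3.46 CPM) and neuron-rich libraries (0.821 to 4.00 CPM) overlapped. LINC-ZFP809-1 read 1.24 to 2.83 CPM in germinal libraries and 0.579 to 1.26 in neuron-rich ones at E42, where its difference did not pass (1.01 ± 0.42, SE, adjusted p = 0.0704). ZBTB34-AS-1 was the 1 member that fell, by -1.17 ± 0.31 (SE, edgeR adjusted p = 0.00890). The changes of these 4 members passed under all alternatives and with each library left out.

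OSVZ against CP at E28 gave 5 members (1.67%), 1 higher and 4 lower, where 12.7% of all features (6.37% higher, 6.34% lower) and 2.95% of the other LINC and AS features passed. With replicate numbers blocked inside each stage the count was 8, and without E28 CP replicate 2, E28 OSVZ replicate 1 or E28 OSVZ replicate 2 it was 2. ZNF831-AS-1 was lower in OSVZ (0.165 and 0.145 CPM) than in CP (1.76 and 1.19), by a log2 fold change of -3.22 ± 0.76 (SE, 2 against 2 libraries, edgeR adjusted p = 0.00327). It did not pass without E28 OSVZ replicate 2 (adjusted p = 0.0545). ZBTB38-AS-1 was lower, with a log2 fold change of -2.18 ± 0.55 (SE, adjusted p = 0.00633), but of -1.24 (adjusted p = 0.286) without E28 CP replicate 2, the library with 3.60 CPM, and it did not pass without E28 OSVZ replicate 1 either (-2.01, adjusted p = 0.0898). LINC-ZNF677-1 had no count in either OSVZ library and read 0.205 and 0.487 CPM in CP, which against the level of 3 counts over both OSVZ libraries is at least 8.18-fold lower (adjusted p = 0.00689). That call was lost with 3 of the 4 libraries left out (largest adjusted p = 0.0723, without E28 OSVZ replicate 1). ZFPM2-AS-7 (0 and 0.0579 CPM in OSVZ against 0.287 and 1.81 in CP, adjusted p = 0.0418) was the fourth lower member, a call also lost with 3 of the 4 left out (largest adjusted p = 0.378, without E28 CP replicate 2). The higher member, named after its values were seen, was ZBTB5-AS-2, with 0.275 and 0.724 CPM in OSVZ and no count in CP, at least 10.2-fold higher than the level of 3 counts over both CP libraries (adjusted p = 0.0283). ZBTB5-AS-2 was named because of this call, so the call gives no independent support for a difference. Whether it holds with a library left out was not examined.

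At E42 OSVZ against CP (CPi and CPo) gave 23 members (7.69%), 19 higher and 4 lower, against 26.5% of all features (14.6% higher, 11.9% lower) and 9.82% of the other LINC and AS features. LINC and AS scaling gave 11 higher and 6 lower, with a shift of -0.39, and leaving out 1 library left between 12 and 16, fewest without E42 OSVZ replicate 1. ZNF71-AS-1 was higher in OSVZ by 1.81 ± 0.35 (SE, log2, 2 against 4 libraries, edgeR adjusted p = 0.000171). ZBTB34-AS-1 was lower, with a log2 fold change of -2.41 ± 0.36 (SE, adjusted p = 4.39e-06). ZNF638-AS-1, named after a nuclear RNA-binding protein that takes part in silencing, read 2.86 and 2.41 CPM in OSVZ against 0.810 and 0.795 in CPi and 1.12 and 1.05 in CPo, with no overlap. Its log2 fold change was 1.49 ± 0.37 (SE, adjusted p = 0.00256). At E28 the same transcript read 4.59 and 4.43 CPM in OSVZ against 2.83 and 5.19 in CP, which overlapped, and 0.702 and 1.24 in VZ, its lowest layer of that stage. ZNF704-AS-2 read 1.93 and 1.47 CPM in OSVZ against 0.0887 to 0.309 in the plate, a log2 fold change of 2.96 ± 0.92 (SE, adjusted p = 0.0159), lost with 3 of the 6 libraries left out (largest adjusted p = 0.0789, without E42 OSVZ replicate 1). ZNF280C-AS-1 (1.91 ± 0.62, SE, adjusted p = 0.0207) was likewise lost with 3 of the 6 left out (largest adjusted p = 0.163, without E42 OSVZ replicate 2).

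Within the subventricular zone at E28, OSVZ against ISVZ gave 2 members (0.669%), where 8.94% of all features (3.78% higher, 5.16% lower) and 1.33% of the other LINC and AS features passed. ZNF238-AS-1, whose symbol is an older name of ZBTB18, a repressor needed for the maturation and migration of cortical neurons, read 13.5 and 20.1 CPM in OSVZ against 6.38 and 7.70 in ISVZ. The libraries did not overlap, and the log2 fold change was 1.25 ± 0.40 (SE, edgeR adjusted p = 0.0471), but the call was lost with any 1 of the 4 libraries left out (largest adjusted p = 0.378, without OSVZ replicate 2, where the log2 fold change was 0.94). Its differences among all layers were better supported (edgeR adjusted p = 0.000305 at E28 and 0.00191 at E42). Its mean was lowest in MZ at each stage, with 1.61 and 5.42 CPM at E28, 3.28 and 2.44 at E37 and 3.79 and 3.09 at E42, and it read 12.3 and 13.9 CPM in CP at E28, 9.93 to 11.8 in the plate at E37 and 9.42 to 17.6 in the plate at E42. LINC-ZNF677-1 was the other member, with no count in OSVZ and 0.144 and 0.274 CPM in ISVZ, at least 4.94-fold lower (adjusted p = 0.0313), and that call too was lost with 3 of the 4 left out (largest adjusted p = 0.195, without OSVZ replicate 2).

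From E28 to E42 the subventricular zone (ISVZ and OSVZ together) changed in 22 members (7.36%), 18 upward and 4 downward. Of all features 22.2% changed (12.5% up, 9.64% down), and of the other LINC and AS features 8.13%. LINC and AS scaling gave 10 up and 8 down with a shift of -0.39, and leaving out a library left between 7 (without E28 ISVZ replicate 1) and 16. The transcripts of the symbol ZNF677 rose together. ZNF677-AS-1 read 0.685 and 0.183 CPM in ISVZ and 0.248 and 0.347 in OSVZ at E28 and 1.87 and 1.97 in ISVZ and 2.09 and 1.62 in OSVZ at E42, without overlap (log2 fold change 2.39 ± 0.41, SE, 4 against 4 libraries, edgeR adjusted p = 6.73e-05). LINC-ZNF677-1 read 0.144 and 0.274 CPM in ISVZ and 0 and 0 in OSVZ at E28, and 1.15 and 0.968 in ISVZ and 0.735 and 0.946 in OSVZ at E42. The ratio of the side means was 9.08 (adjusted p = 0.000213). ZBTB38-AS-1 rose by 2.39 ± 0.40 (SE, log2, adjusted p = 5.24e-05), from 0.325 to 0.608 CPM at E28 to 1.72 to 2.71 at E42.

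ZNF461-AS-2, of another KRAB gene, read 0.108 and 0.0609 CPM in ISVZ and 0.440 and 0.261 in OSVZ at E28 and 1.37 and 0.717 in ISVZ and 1.47 and 1.09 in OSVZ at E42, again without overlap (2.72 ± 0.64, SE, log2, edgeR adjusted p = 0.00217). LINC-ZNF316-2 fell from 17.1 to 26.7 CPM at E28 to 8.85 to 15.5 at E42 (-0.84 ± 0.22, SE, adjusted p = 0.00492; adjusted p = 0.0507 without E28 ISVZ replicate 1). ZNF496-AS-1 rose from 4.84 to 12.8 CPM to 13.7 to 18.3 CPM (0.89 ± 0.27, SE, adjusted p = 0.0168), which did not pass with LINC and AS scaling (0.54, adjusted p = 0.139) and was lost with 2 of the 8 libraries left out (0.68, adjusted p = 0.121, without E28 OSVZ replicate 1). LINC-ZNF420-2, named after a KRAB gene, fell from 39.7 to 55.1 CPM to 32.8 to 39.2 CPM (-0.39 ± 0.13, SE, adjusted p = 0.0346), a call kept with only 1 of the 8 libraries left out.

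The neuron-rich layers were compared over all 3 stages, and the comparisons share libraries. E28 to E37 gave 31 members (10.4%; 12 up, 19 down; all features 22.4%, with 12% up and 10.4% down; other LINC and AS features 11.4%). E37 to E42 gave 16 (5.35%; 11 up, 5 down; all features 15.6%, with 10.3% up and 5.3% down; other LINC and AS features 6.64%). E28 to E42 gave 35 (11.7%; 17 up, 18 down; all features 27.3%, with 17.1% up and 10.2% down; other LINC and AS features 11.2%). LINC and AS scaling turned the last split into 23 up and 10 down (shift 0.23) and the first into 14 up and 13 down (shift 0.27). Leaving out E42 IZ replicate 2 or E42 MZ replicate 1 brought the E28 to E42 count to 22 and 23, and leaving out E42 IZ replicate 1 or E42 MZ replicate 1 brought the E37 to E42 count to 8.

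Both ZNF677 transcripts were among the members that rose. LINC-ZNF677-1 read from 0 to 0.661 CPM with a median of 0.317 in the 6 neuron-rich libraries of E28, from 0.778 to 1.65 with a median of 1.43 in the 10 of E37 and from 0.338 to 1.28 with a median of 0.619 in the 8 of E42. E28 and E37 did not overlap (log2 fold change 1.94 ± 0.51, SE, edgeR adjusted p = 0.00672). ZNF677-AS-1 rose from E28 to E37 by 1.36 ± 0.31 (SE, adjusted p = 0.00164) and was higher at E42 than at E28 by 1.51 ± 0.31 (SE, adjusted p = 0.000411), with 0.242 to 1.27 CPM at E28 and 1.52 to 2.72 at E42. Across the 35 libraries the 2 transcripts had a Pearson correlation of 0.688 on the log2 scale. ZNF71-AS-3 rose from 3.13 to 8.36 CPM at E28 to 7.39 to 14.7 at E37 (0.78 ± 0.18, SE, adjusted p = 0.00205), with overlap. ZBTB34-AS-1 rose from E28 to E37 (0.71 ± 0.20, SE, adjusted p = 0.00905), a call that was lost when only the libraries compared were fitted (adjusted p = 0.0590), and its higher E37 values were those of the plate given above.

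**Figure D3:**
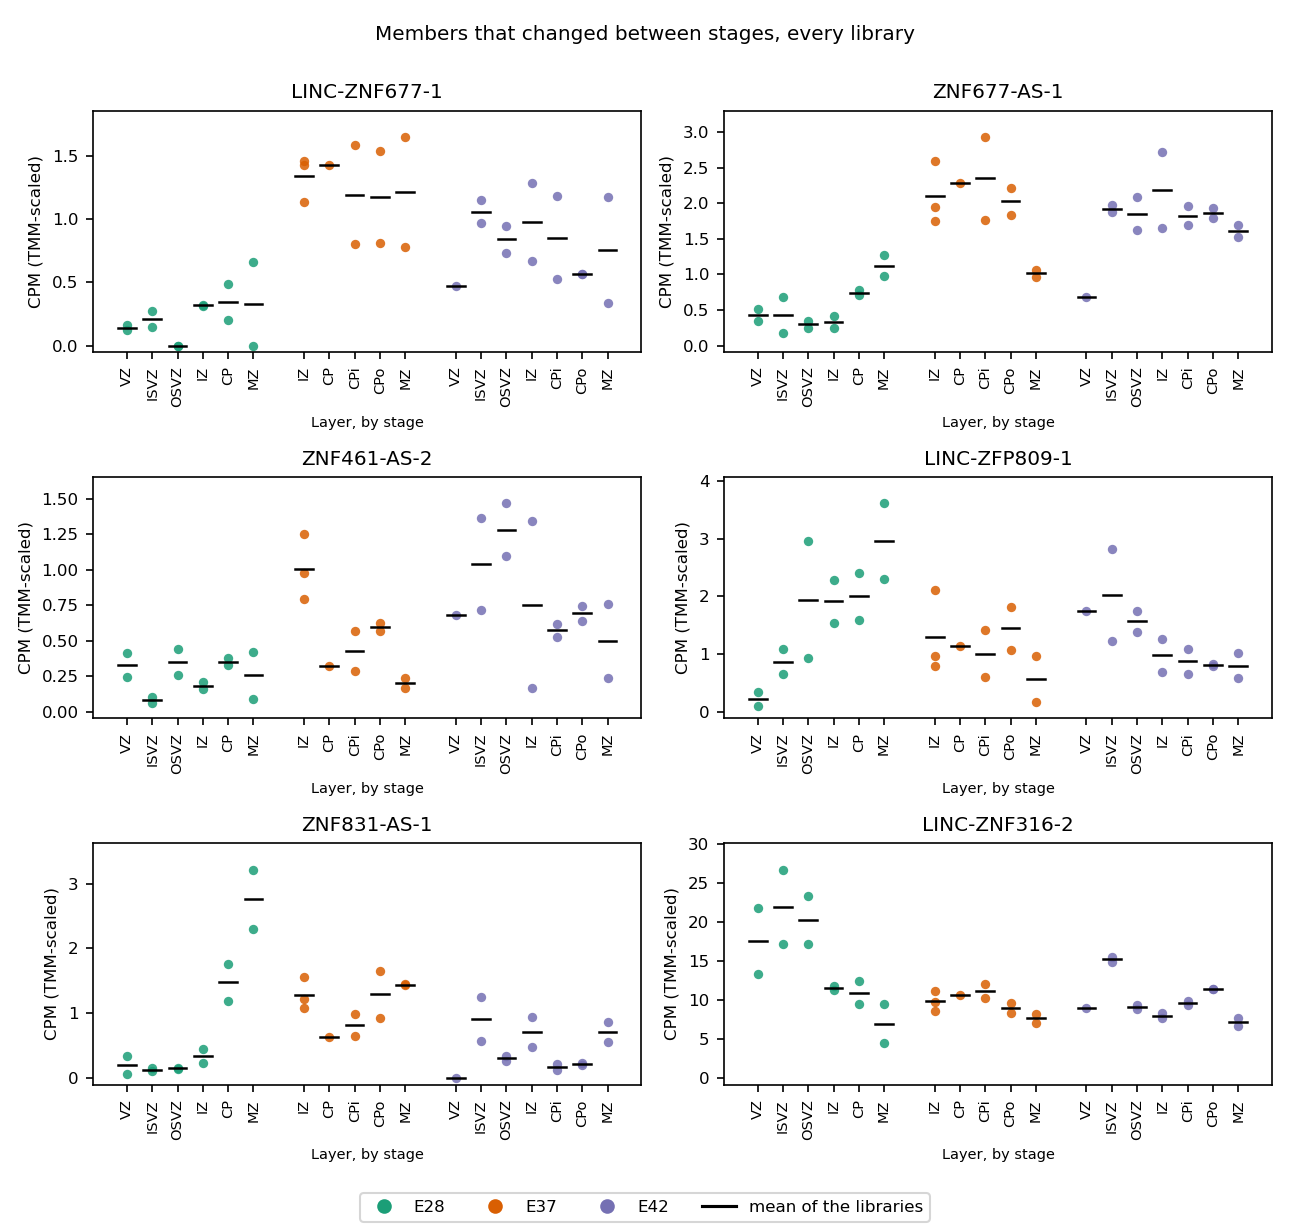
TMM-scaled CPM (vertical axes) of 6 members that changed between stages, in every library by layer and stage (horizontal axes); points are libraries and bars their means. Both ZNF677 transcripts sit higher in every IZ library of E37 and E42 than in those of E28, ZNF461-AS-2 rises in ISVZ and OSVZ, and LINC-ZNF316-2 falls in ISVZ and OSVZ.

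Among those that fell in neuron-rich layers, ZNF490-AS-1 went from 138 to 305 CPM at E28 to 107 to 219 at E42 (-0.65 ± 0.11, SE, log2, edgeR adjusted p = 3.60e-05) and fell between E37 and E42 (-0.43 ± 0.10, SE, adjusted p = 0.00400), with overlapping groups. ZNF638-AS-1 fell from 1.54 to 5.19 CPM at E28 to 0.795 to 1.81 at E42 (-1.32 ± 0.24, SE, adjusted p = 0.000116). LINC-ZFP809-1 fell from 1.55 to 3.62 CPM to 0.579 to 1.26 without overlap (-1.35 ± 0.40, SE, adjusted p = 0.0102). LINC-ZFP39-18 fell from 1.62 to 2.67 CPM to 0.453 to 1.61 without overlap (-1.14 ± 0.28, SE, adjusted p = 0.00264). ZBTB12-AS-1 fell from 1.74 to 2.38 CPM to 0.434 to 1.48, also without overlap (-1.02 ± 0.29, SE, adjusted p = 0.00934), but not with LINC and AS scaling (-0.80, adjusted p = 0.0615). ZNF831-AS-1 fell between E37 (0.643 to 1.66 CPM) and E42 (0.120 to 0.946), and its E42 plate libraries read 0.214 and 0.120 CPM in CPi and 0.231 and 0.206 in CPo at E42 (-1.38 ± 0.35, SE, adjusted p = 0.00717).

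One list held zinc finger genes that the study itself names (ZNF219, ZNF646, ZNF703, ZNF143, ZNF3, ZNF687, ZNF395, ZNF438, ZNF608, ZNF664 and ZNF704). The study chose them partly on these libraries, so their direction here is not independent evidence. The files hold 60 noncoding features named after these genes, of which 15 were tested. In germinal against neuron-rich layers, 5 of 15 were higher and 0 lower at E28, and 5 were higher and 0 lower at E42. The 33.3% called at each stage was near the share of all features (35.7% at E28 and 30.1% at E42), and the other LINC and AS features gave 16.7% and 12.1%. The median log2 fold change was 0.88 at E28 and 1.40 at E42, beside -0.05 and 0.07 over all features. In OSVZ against CP at E28 none of the 15 passed the edgeR test, 2 had an unadjusted p under 0.05, and at E42 3 were higher and none lower (20% of the list, 26.5% of all features). From E28 to E37 in neuron-rich layers 3 fell and none rose (20% of the list, 22.4% of all features), and from E37 to E42 2 rose and none fell (13.3% and 15.6%). A block by replicate number shared over stages pairs no embryos, since these differ between stages. With it, the fall of ZNF664-AS-5 from E28 to E37 (edgeR adjusted p = 0.0931) and the rise of LINC-ZNF438-9 from E37 to E42 (adjusted p = 0.0810) did not pass. Of these 2 calls, the first was lost with 5 of 16 libraries left out and the other with 3 of 18, namely E42 CPo, IZ or MZ replicate 1.

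ZNF704-AS-2 read 0.255 and 0.247 CPM in VZ, 0.397 and 0.853 in ISVZ and 0.523 and 0.695 in OSVZ at E28, where CP and MZ held 0 to 0.243 CPM and IZ 0.354 and 0.518. At E42 it read 0.741 CPM in VZ, 2.59 and 1.61 in ISVZ and 1.93 and 1.47 in OSVZ, above all 8 neuron-rich libraries (0.0394 to 0.698 CPM). The log2 fold change was 2.09 ± 0.65 (SE, edgeR adjusted p = 0.0142) at E42, and at E28 it was 1.96 ± 0.77 (adjusted p = 0.0481), with overlap. The E42 call was lost without E42 IZ replicate 1 (1.77, adjusted p = 0.0539), and the E28 call with 9 of 12 libraries left out.

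The transcripts named after ZNF664, a gene that the study also overexpressed in mouse cortex, were sparse. LINC-ZNF664-6 had 34 counts in the 6 germinal libraries and 4 in the 6 neuron-rich libraries of E28, none in the 10 libraries of E37, and 47 in the 5 germinal and 9 in the 8 neuron-rich libraries of E42. It passed at both stages (edgeR adjusted p = 0.0183 and 0.0301), but the E42 call was lost with 7 of 13 libraries left out (largest adjusted p = 0.174, without VZ replicate 1). ZNF664-AS-1 read 0.0609 to 0.613 CPM in germinal and 0 to 0.419 in neuron-rich libraries of E28 (1.96 ± 0.75, SE, adjusted p = 0.0400), a call lost with 8 of 12 left out (largest adjusted p = 0.309, without ISVZ replicate 1). LINC-ZNF664-3, ZNF664-AS-4 and ZNF664-AS-5 did not pass between germinal and neuron-rich layers at either stage. LINC-ZNF438-9 had 24 counts in the germinal libraries and 0 in the 6 neuron-rich libraries of E28, at least 6.67-fold higher than the level of 3 counts over those libraries (adjusted p = 0.00713). It was also at 0 in all 10 libraries of E37. LINC-ZNF664-6 and LINC-ZNF438-9 read at most 0.138 CPM in neuron-rich libraries, so both passed the count filter through germinal libraries. Their germinal against neuron-rich tests thus give no independent support for a difference. ZNF438-AS-1 fell between E28 and E37 (from 0.135 to 0.425 CPM to 0 to 0.195 CPM, adjusted p = 0.00113).

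The second list held zinc finger genes known from neural development. Of 148 noncoding features named after them, 22 were tested. In germinal against neuron-rich layers 3 were higher and 2 lower at E28, and 7 higher and 1 lower at E42. These were 22.7% and 36.4% of the list, beside 35.7% and 30.1% of all features and 16.7% and 12.1% of the other LINC and AS features. The higher transcripts belonged to ZNF521, ZBTB20, ZBTB16, ZNF608 and ZNF462 and the lower ones to ZFPM2. Among them LINC-ZBTB20-2, LINC-ZNF608-7, LINC-ZNF521-1 and ZBTB16-AS-1 passed the count filter through germinal libraries. ZFPM2-AS-2 and ZFPM2-AS-7 passed it through neuron-rich ones. The shares of the list thus give no independent support for a difference. LINC-ZNF608-7 kept its E42 call in 6 of the 13 fits that left out 1 library. LINC-ZNF521-1, named after a gene active in immature neural cells, read 0.542 and 1.36 CPM in VZ, 0.108 and 0.213 in ISVZ and 0.385 and 0.434 in OSVZ at E28, against 0 to 0.138 in neuron-rich libraries (111 against 5 counts; edgeR adjusted p = 0.00184). At E42 it read 0.622 CPM in VZ, 0.240 and 0.287 in ISVZ and 0.0387 and 0.0995 in OSVZ. Among neuron-rich libraries it reached 0.172 and 0.290 CPM in MZ (edgeR adjusted p = 0.00771). LINC-ZNF521-1 passed the count filter through germinal libraries, so these tests give no independent support for the difference.

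LINC-ZBTB20-5, of a gene that shapes hippocampal and upper-layer cortical identity, was a germinal transcript at E42, with 0.800 CPM in VZ, 1.03 and 0.591 in ISVZ and 0.425 and 0.523 in OSVZ against 0 to 0.290 in neuron-rich libraries, without overlap (135 against 20 counts; log2 fold change 3.62 ± 0.90, SE, edgeR adjusted p = 0.00231). LINC-ZNF608-10 also counts in the study's list. It read 0.918 CPM in VZ, 0.455 and 0.968 in ISVZ and 0.193 and 0.324 in OSVZ at E42, against 0 to 0.531 CPM, where 0.478 and 0.531 were the MZ libraries and CPi was at 0 (adjusted p = 0.0125). ZBTB16-AS-1 reached 0.853 CPM in 1 ISVZ library of E28 and passed at both stages (adjusted p = 0.0329 and 0.0419) on 55 against 7 counts at E28 and 13 against 5 at E42, calls lost with 7 of 12 and 10 of 13 libraries left out (largest adjusted p = 0.117, without E28 VZ replicate 2, and 1, without E42 OSVZ replicate 2, which leaves that layer at 0). With the replicate number as a block the E28 call was lost (edgeR adjusted p = 0.0680). ZBTB16-AS-1 read at most 0.161 CPM in neuron-rich libraries and passed the count filter through germinal ones. Its tests thus give no independent support for a difference. ZNF462-AS-1, whose gene is mutated in a developmental syndrome, read 2.96 to 5.87 CPM in germinal and 1.22 to 3.11 in neuron-rich libraries of E42 (0.91 ± 0.32, SE, adjusted p = 0.0281), and not with LINC and AS scaling (0.60, adjusted p = 0.156) nor with 5 of 13 libraries left out (0.72, largest adjusted p = 0.122, without E42 ISVZ replicate 1).

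ZFPM2-AS-7 was the neuron-rich counterpart. At E28 it read 0.287 and 1.81 CPM in CP, 0.546 and 0.706 in MZ and 0 and 0.553 in IZ, against 0 to 0.0914 CPM in germinal libraries (edgeR adjusted p = 0.000425; it did not pass without E28 IZ replicate 2, which leaves IZ at 0). At E42 it had no count in the 5 germinal libraries and 0.0965 to 0.592 CPM in the 8 neuron-rich ones. That was at least 17.2-fold lower in the germinal layers against the level of 3 counts over these libraries (edgeR adjusted p = 0.00151). No germinal library exceeded 0.0914 CPM, so ZFPM2-AS-7 passed the count filter through neuron-rich libraries. Its tests here, and that of OSVZ against CP above, thus give no independent support for the difference. ZFPM2-AS-8 was highest in IZ at E42, with 0.808 and 0.251 CPM (edgeR test of layers, adjusted p = 0.0107), and was at 0 in both OSVZ and both ISVZ libraries. It too passed the count filter through neuron-rich libraries. The RNA-binding ZFP36 family gave 3 tested members, all of ZFP36L2. LINC-ZFP36L2-6 was higher in the germinal layers at E28 (0.0289 to 0.351 CPM against 0 to 0.138, adjusted p = 0.0193), and at E42 none of the 3 passed that edgeR comparison while 2 had an unadjusted p under 0.05. At E42 LINC-ZFP36L2-6 was higher in OSVZ (0.0387 and 0.249 CPM) than in CP, where it had no count (at least 8.56-fold against the level of 3 counts over those libraries, adjusted p = 0.0143). Germinal libraries, where it was high, may have carried LINC-ZFP36L2-6 past the count filter. Its tests at E28 and E42 thus give no independent support for a difference. In neuron-rich layers LINC-ZFP36L2-10 rose from E28 to E42 (0.0410 to 0.265 CPM to 0.0964 to 1.83 CPM, adjusted p = 0.00201) and LINC-ZFP36L2-7 rose from no count (at least 9.77-fold, adjusted p = 0.00774). LINC-ZFP36L2-7, with 1 library above 0 among the 22 of E28 and E37, read 0 to 0.373 CPM in neuron-rich and 0.0746 to 1.27 CPM in germinal libraries of E42. Neuron-rich libraries of E28 held no count of LINC-ZFP36L2-7, so it passed the count filter through other libraries. Its rise thus gives no independent support for a change between stages.

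**Figure D4:**
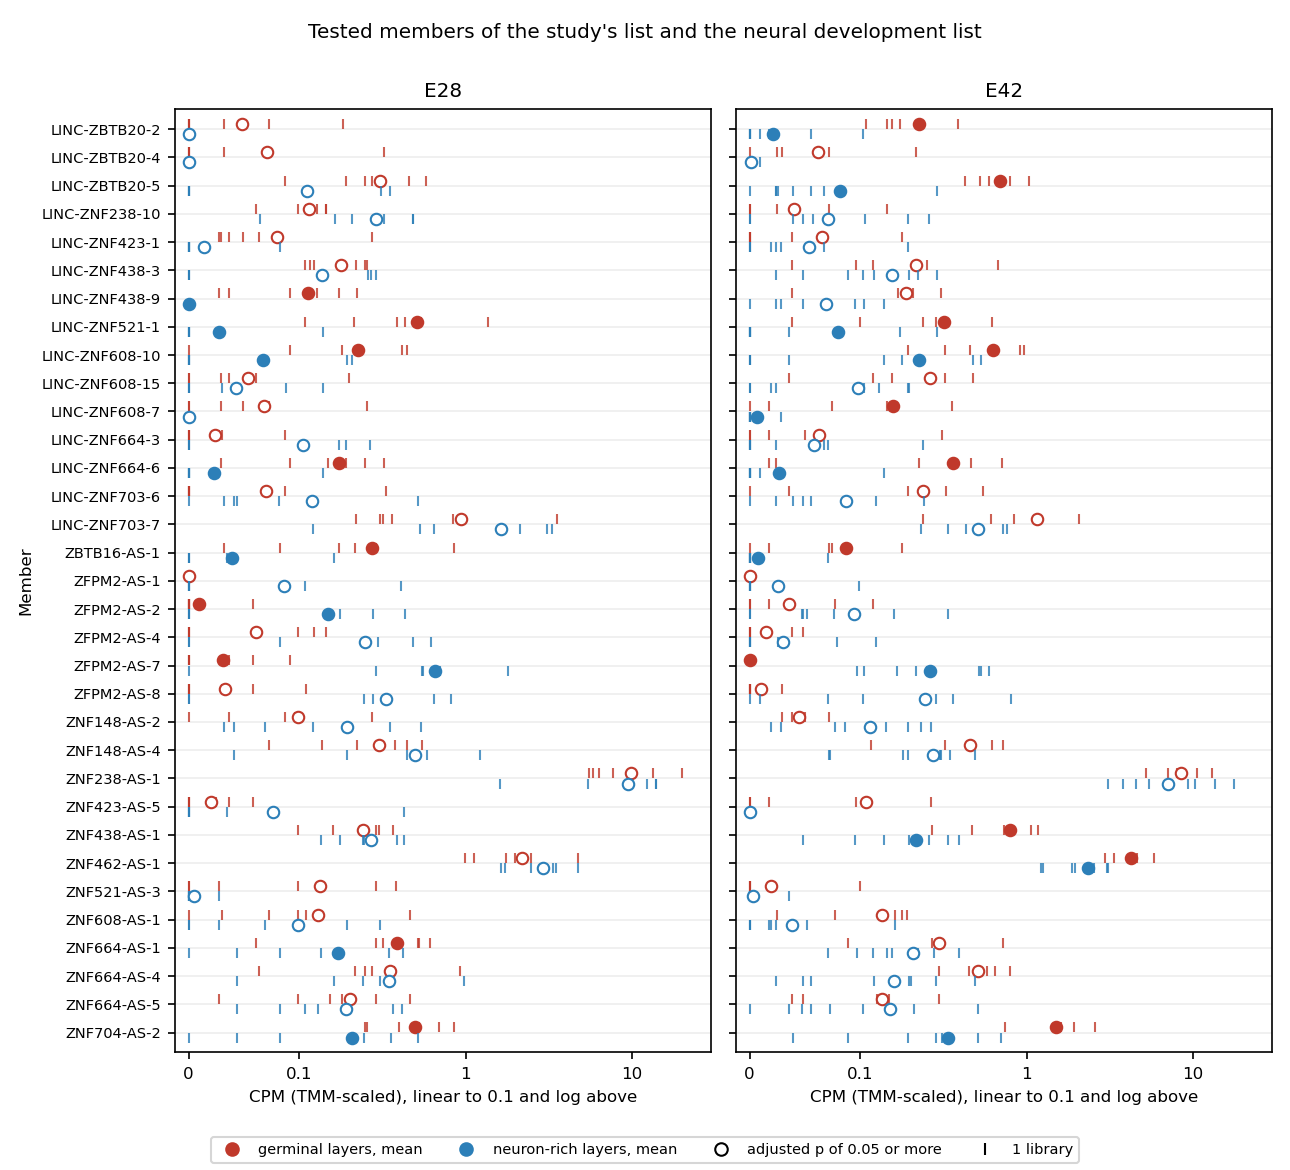
TMM-scaled CPM (horizontal axes, linear to 0.1 and logarithmic above) of the 33 tested members of the study's list and the neural development list (rows), at E28 and E42. Ticks are libraries, circles the means of germinal (red) and neuron-rich (blue) layers, filled where edgeR adjusted p was under 0.05; filled red circles lie to the right of blue ones except for ZFPM2 transcripts.

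Transcripts that share a symbol were weakly correlated. In 21 cases 2 or 3 members of a symbol were called in the same comparison. In 16 of them all calls had 1 direction, and the 5 with both directions belonged to ZNF71 and ZFP39. Comparisons share libraries and some symbols recur, so these cases are not independent. Calls within a comparison also leaned to 1 side, for example 25 higher and 7 lower for germinal against neuron-rich layers at E42. How often calls of different symbols had 1 direction was not computed. Among the 72 symbols with 2 or more tested members, 307 pairs could be formed, and the median over symbols of the median Pearson correlation of log2 levels across the 35 libraries was 0.168. Over single pairs the median was 0.126 for the 307 pairs of 1 symbol and 0.0403 for the 44244 pairs of different symbols. For ZFP39, with 13 tested members, the median over 78 pairs was 0.04 and the range -0.574 to 0.404. ZNF71 had the lowest pair among the symbols described here, at -0.689, while pairs of ZNF474 lay between 0.675 and 0.823. These values describe libraries that share layers, stages and depth, and many of the members have few counts.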

How the data were processed

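Polyadenylated RNA of laser-dissected fetal cortex layers of the Chinese tree shrew was sequenced, and the authors deposited 1 table per library of raw counts per feature, made by aligning reads with HISAT and counting them with HTSeq against the TS_3.0 annotation. The strand setting of the counting is not given in the sources used here. Lines without a feature stayed out of library sizes: of all counted reads, 8.556% to 14.05% had no feature and 14.99% to 19.06% were ambiguous, a class that takes reads shared by overlapping features.

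From the deposited counts, 35 libraries in 18 groups of layer and stage were fitted together (17 residual degrees of freedom) with edgeR 4.0.16 in R 4.3.3: TMM scaling, filterByExpr by group with a minimum count of 10, trended dispersions and robust quasi-likelihood fits. Adjusted p-values are Benjamini-Hochberg over all 26858 features tested, with a threshold of 0.05. In a comparison each layer weighs alike. CP is the mean of CPi and CPo at E42, and at E37 the mean over its CP, CPi and CPo libraries, each library weighing alike. Standard errors come from the fit and include the spread between libraries; a floor is 3 counts over a side and covers counting error only.

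Members were named by rule: for each comparison up to 5 higher and 5 lower with adjusted p under 0.05, a mean of at least 0.3 CPM and no overlap of libraries (overlap was not used for the interaction), by largest change; the 8 most abundant; and all tested members of 2 gene lists. The members and lists were chosen with earlier results of these data known. Alternatives were DESeq2 1.42.0 (its test, and its size factors in edgeR), scaling from LINC and AS features, no filter or a mean of 0.3 CPM, fitting only the libraries compared, a replicate block, keeping E42 VZ replicate 2, and leaving out each library with dispersions kept. The block was set within each stage for comparisons inside a stage. For comparisons between stages it was shared over stages, where equal numbers are different embryos.

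Same-numbered libraries deviated together at E28 (correlations of 0.167 to 0.265 in 15 of 15 layer pairs) and E37 (0.129 to 0.272 in 6 of 6), but not throughout E42 (over 0.1 in 10 of 15). Numbers may thus pair libraries at E28 and E37. The main fit held no such pairing, so its p-values ignore it. The block within stages, an alternative only, covered every stage. Where the pairing comes from is not stated. The model was tested on simulated data: of 200 features changed 4-fold between germinal and neuron-rich layers of E28, 57.5% were recovered, but 5.26% of the LINC and AS features among them under 0.3 CPM.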

Additional observations from a re-analysis of the deposited data

Results flagged for a closer look

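For 6 of the named members the germinal against neuron-rich contrast itself changed from E28 to E42, as tested by the interaction term in edgeR. The changes on the log2 scale were 2.63 ± 0.60 (SE, adjusted p = 0.00252) for LINC-ZFP809-1, 2.25 ± 0.46 (adjusted p = 0.000869) for ZBTB38-AS-1, 1.97 ± 0.43 (adjusted p = 0.00183) for ZNF140-AS-2, 1.76 ± 0.54 (adjusted p = 0.0257) for LINC-ZNF652-5 and -1.17 ± 0.31 (adjusted p = 0.00890) for ZBTB34-AS-1. LINC-ZNF677-1 changed by 2.67 ± 0.93 (edgeR adjusted p = 0.0499), a fit in which the E28 OSVZ is at 0. Its adjusted p was 0.0537 with the replicate number as a block shared over stages. That call passed in 3 of 8 alternatives and in 6 of the 25 fits that left out 1 library, and its change was 0.51 (adjusted p = 1) without E28 MZ replicate 2, which leaves MZ at 0. LINC-ZNF652-5 did not pass with LINC and AS scaling (1.13) nor with 7 libraries left out in turn, the largest adjusted p being 0.101 without E28 IZ replicate 1. At E42 the germinal against neuron-rich difference of ZBTB38-AS-1 was -0.61 ± 0.32 (adjusted p = 0.167), of ZNF140-AS-2 0.41 ± 0.31 (adjusted p = 0.358) and of LINC-ZNF652-5 -0.17 ± 0.38 (adjusted p = 0.839), all in edgeR.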

How the results depend on the processing

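Of 113 calls of 42 named members, 59 passed in every alternative that tested them. With each library left out 48 passed, and 38 passed in all of these fits. None changed sign outside the leave-one-out fits. Not every alternative tested each call: DESeq2 gave no adjusted p for 8, and 83 entered at a mean of at least 0.3 CPM. With only the libraries compared 103 entered. The germinal call of LINC-ZNF438-9 at E28, kept in all, was thus judged by 5 alternatives. Fitting only the libraries compared gave 1 member for OSVZ against CP at E28, 1 for OSVZ against ISVZ at E28, 21 for germinal against neuron-rich layers at E28, 13 for layers at E28 and 15 for neuron-rich layers from E28 to E37. A mean of at least 0.3 CPM gave 11 for OSVZ against CP at E42, 13 for the subventricular zone from E28 to E42, 22 and 14 for germinal against neuron-rich layers at E28 and E42 and 15 for layers at E42; fewer members are tested then. DESeq2 gave 6 for OSVZ against ISVZ, 22 for the interaction and 27 for neuron-rich layers from E37 to E42, and no filter gave 9 for the interaction. Keeping E42 VZ replicate 2 gave 1 for OSVZ against ISVZ and 14 for the subventricular zone, and LINC and AS scaling 1 for OSVZ against ISVZ. Plain library totals gave a summed level of 543.4 CPM in place of 508.4 CPM for germinal layers at E42. Apart from the fewer features or libraries used, the cause was not tested.

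With the replicate number as a block, OSVZ against CP at E28 gave 8 members in place of 5, and the other comparisons stayed within 1.5 times. Among named members the block within stages ended the call of ZBTB16-AS-1 at E28. The block shared over stages, which pairs no embryos, ended those of LINC-ZNF677-1 in the interaction and LINC-ZNF438-9 from E37 to E42. It also ended those of ZFPM2-AS-4 from E28 to E42 and ZNF664-AS-5 from E28 to E37. No other call was lost with either block.

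With 1 library left out, counts ran from 24 to 38 and 14 to 23 for layers at E28 and E42, 28 to 39 and 19 to 31 for germinal against neuron-rich layers, 9 to 18 for the interaction, 2 to 4 and 12 to 16 for OSVZ against CP, 0 to 1 for OSVZ against ISVZ, 7 to 16 for the subventricular zone, and 22 to 36, 21 to 43 and 8 to 15 for neuron-rich layers from E28 to E42, E28 to E37 and E37 to E42. Layers at E42 gave 16 and 14 without E42 CPi replicate 1 and 2. Most tested members had a mean under 0.3 CPM, and the effect of depth on their calls was not tested.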

Other observations

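The transcripts named after ZNF474, chosen after their values were seen, were highest in VZ at E42. ZNF474-AS-1, LINC-ZNF474-3 and LINC-ZNF474-4 read 2.13, 2.22 and 3.85 CPM in the single VZ library of E42. In the ISVZ and OSVZ libraries of that stage they read 0.161 to 0.425 CPM, 0.0387 to 0.767 CPM and 0.197 to 0.455 CPM, and in neuron-rich libraries at most 0.335, 0.0957 and 0.241 CPM. The ISVZ and OSVZ libraries of all 3 overlapped with the neuron-rich range, and no test is given, since the single VZ library set these values apart. ZNF474-AS-1 had no count in any E37 library or in any neuron-rich library of E28.

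ZBTB38-AS-5, also chosen after its values were seen, had no count in the libraries of E28 and E37 and read 0.326 CPM in VZ, 0.240 and 0.251 in ISVZ and 0.193 and 0.0995 in OSVZ at E42, with 1 MZ library at 0.00957 CPM and the remaining neuron-rich libraries at 0. It passed the count filter through the germinal libraries, so no test is given. At E28, ZNF347-AS-3 was at 0 in 5 of 6 germinal libraries, and ZNF347-AS-5 read 3.44 to 8.01 CPM in germinal and 7.59 to 9.60 CPM in neuron-rich libraries.

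LINC-ZNF703-7, singled out here after its values were seen, differed in median between replicate numbers at E28, with overlapping ranges. How many other members split by number was not counted. The 6 libraries of replicate 1 read 0.121 to 0.645 CPM with a median of 0.340, and the 6 of replicate 2 read 0.305 to 3.56 CPM with a median of 2.61.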
